A study of Mus musculus with 6 samples.

Results

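The Eps8 family of actin regulators was followed in mouse heart RNA: Eps8l1, which was lower at each step across the 3 groups of the study, and its paralogs Eps8 and Eps8l2. Eps8l1 was chosen by its CPM in these same libraries, for that decline, so its levels are given as a description with no test. The family names chose the paralogs. All 3 listed genes had a row among the 29385 genes of the joined tables, and the remaining family gene, Eps8l3, was not analysed here. The libraries came from hearts of mice that all carry the Myh6 RH allele and were harvested 12 months after administration to newborns. The product of Myh6 is alpha myosin heavy chain, which drives contraction in the adult mouse ventricle. One group was Myh6 RH/+ given vehicle, the next was Myh6 RH/RQ given vehicle, and the last was Myh6 RH/RQ given AAV-hpCas13d, called treated below. Each group had 2 libraries. Cas13d is a nuclease that cuts RNA under the direction of a guide RNA, and AAV, adeno-associated virus, carries the gene for it into cells. The labels do not spell out the RH and RQ alleles. The promoter and guide of the vector, and any vehicle-treated wild-type heart, were not analysed here.

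Eps8 proteins sit where actin filaments meet the membrane. Eps8 caps the fast-growing (barbed) ends of filaments, bundles filaments together with Baiap2, and, in a complex with Abi1 and Sos1, helps to switch on the small GTPase Rac downstream of receptor tyrosine kinases such as the EGF receptor. Eps8l1 and Eps8l2 share the domains that bind Abi1 and actin. Most of what is known of the family comes from epithelial microvilli, protruding fibroblasts and the stereocilia of inner ear hair cells, and much less from heart.

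Eps8l1 (ENSMUSG00000006154.13) lies on the plus strand of mouse chromosome 7, from 4460674 to 4480487 in GRCm38, with 6.04 kb of annotated exon. Eps8l2 (ENSMUSG00000025504.14) is on the same strand of the same chromosome, from 141338880 to 141363020, with 5.38 kb of exon. Eps8 (ENSMUSG00000015766.14) is on the minus strand of chromosome 6, from 137477245 to 137654876, with 12.4 kb of exon. The stretches just upstream of the first annotated exon of the 2 genes on chromosome 7 are shown, since Eps8 had no entry among the promoter sequences used. They are RefSeq promoter sequences of GRCm38.p6, plus strand, chr7:4460447-4460637 for Eps8l1 and chr7:141338752-141338879 for Eps8l2. Capitals mark the only matches to 6 short motifs searched on both strands.
Eps8l1: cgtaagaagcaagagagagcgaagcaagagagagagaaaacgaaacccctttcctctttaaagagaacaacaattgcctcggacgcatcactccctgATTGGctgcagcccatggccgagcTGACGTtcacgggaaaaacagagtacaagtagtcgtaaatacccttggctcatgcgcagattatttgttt
Eps8l2: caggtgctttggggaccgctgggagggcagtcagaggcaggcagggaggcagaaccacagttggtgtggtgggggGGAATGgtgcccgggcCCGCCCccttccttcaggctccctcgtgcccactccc
The Eps8l1 stretch holds 191 bases with 47.6% G or C, and the Eps8l2 stretch 128 bases with 69.5%. In the former the capitals are a CCAAT box (CCAAT, read on the reverse strand) and the core of the cyclic AMP response element (TGACGT). In the latter they are an M-CAT motif (CATTCC) and a GC box (GGGCGG), both on the reverse strand. No match overlaps another. Over the full 250 bases before each listed start, the first Eps8l1 window also held 1 GC box, as did each of its other 2 windows, and the Eps8l2 window held 2. The other 2 windows of Eps8l1 each held 0 CCAAT boxes and 0 cores of the cyclic AMP response element. TATAAA and the E-box CACGTG were in none of these 4 windows. Of all 32851 RefSeq mouse promoter windows of 250 bases, 33.8% held CCAAT, 32.7% GGGCGG, 12.6% CATTCC, 12.4% TATAAA, 6.47% TGACGT and 6.02% CACGTG, on either strand. These matches are descriptions of letters only.

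The 6 libraries held 36269261 to 51017058 reads in genes, where CPM stands for the reads of a gene scaled to a fixed library total. The floor set at 3 reads, up to which a gene without any read could lie, was 0.0588 to 0.0827 CPM. The 8 cardiomyocyte markers, which mark the labelled tissue, were present. They summed to 64177 to 68821 CPM in RH/+, 56667 to 59853 CPM in RH/RQ vehicle and 60448 to 61338 CPM in treated hearts, highest in RH/+. Because the labels do not say whether the libraries of a group came from separate animals, each p-value reflects no more than the spread among these samples, which may be technical. Transcripts tied to sex separated the RH/RQ vehicle libraries from the other 4: Ddx3y, from the Y chromosome, was at 85.2 CPM in both of them and had 0 reads in the rest, and Xist was at 0.0516 to 0.274 CPM against 265 to 326 CPM. Genotype, or treatment, and sex therefore cannot be told apart in either comparison with the RH/RQ vehicle hearts. Treated and RH/+ hearts showed the same sex-linked pattern, but they differ in both genotype and treatment, which cannot be told apart there. The 3 comparisons also share libraries pairwise, so they are not independent of each other.

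Eps8l1 was at 13.1 and 14.1 CPM in the RH/+ vehicle hearts, from 500 and 563 reads. It was at 6.53 and 4.79 CPM in the RH/RQ vehicle hearts, from 333 and 186 reads. In the treated hearts it was at 0.772 and 0.712 CPM, from 28 and 27 reads. The RH/+ hearts were the highest, the treated hearts the lowest, and no library of one group reached the range of the next. Over all genes tested, the first-named group lay wholly below the other in 18.5% for RH/RQ vehicle against RH/+, 14.4% for treated against RH/RQ vehicle and 9.66% for treated against RH/+. The exact Poisson 95% intervals, which cover counting error only, were 12.0 to 14.3 and 13.0 to 15.3 CPM for RH/+, 5.84 to 7.27 and 4.13 to 5.54 CPM for RH/RQ vehicle, and 0.513 to 1.12 and 0.469 to 1.04 CPM for treated hearts.

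Group means of Eps8l1 were 13.6 ± 0.692 CPM in RH/+ vehicle, 5.66 ± 1.23 in RH/RQ vehicle and 0.742 ± 0.0425 in treated hearts (SD, n = 2 each), or 100%, 41.6% and 5.45% of the RH/+ mean. RH/RQ vehicle hearts thus had a 2.41-fold lower mean than RH/+ hearts, treated hearts a 7.63-fold lower mean than RH/RQ vehicle hearts, and treated hearts an 18.4-fold lower mean than RH/+ hearts. On the log2(CPM + 1) scale, which understates changes of low genes, the differences were -1.15, -1.92 and -3.07, each with a standard error of 0.18. Both treated values lay above the floor of 0.0827 CPM. The authors' deposited tables give log2 fold changes for Eps8l1 of -1.32 (SE 0.194), -2.99 (SE 0.357) and -4.31 (SE 0.284) for the same comparisons, with no added pseudocount.

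**Figure D1:**
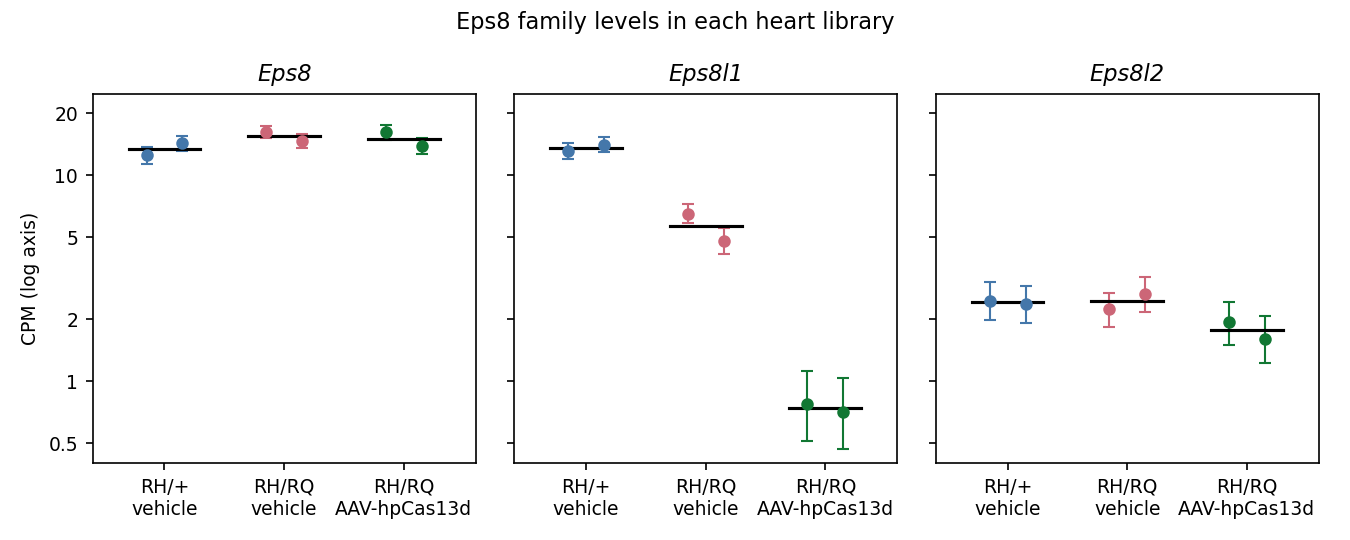
CPM of Eps8, Eps8l1 and Eps8l2 in each of the 6 libraries on a log axis, with exact Poisson 95% intervals as bars and the group mean as a black line. Eps8l1 steps down from a mean of 13.6 to 5.66 to 0.742 CPM, while Eps8 stays between 12.5 and 16.2 CPM and Eps8l2 between 1.61 and 2.66 CPM.

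Eps8l1 was then placed among all 16804 genes that passed the filter on low counts. Counted from the largest decrease on the log2(CPM + 1) scale, it was number 15 for RH/RQ vehicle against RH/+ vehicle, number 7 for treated against RH/RQ vehicle, and number 1 for treated against RH/+ vehicle. The middle value over all genes was 0.04, 0.04 and 0.08 in the 3 comparisons. In the last one, the decreases that came next among genes averaging 1 CPM or more were those of Gm9780 at -1.81, with an SE of 0.55, Acta2, smooth muscle actin, at -1.51, and Gm47283 at -1.46. A stepwise decrease with no overlap of libraries at either step was seen in 121 genes, 0.72% of those tested, and the stepwise increase in 591 genes, 3.52%. Of the 121, 12 decreased at least 1.5-fold in mean CPM at each step, and 4 of these had at least 1 CPM in RH/+ hearts. Only 4 decreased at least 2-fold at each step (Eps8l1, Chst4, Gm12691 and Gm37677), and 2 of those had at least 1 CPM in RH/+ hearts. Eps8l1 was chosen for this pattern, so these ranks and counts say only how large its decline was.

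**Figure D2:**
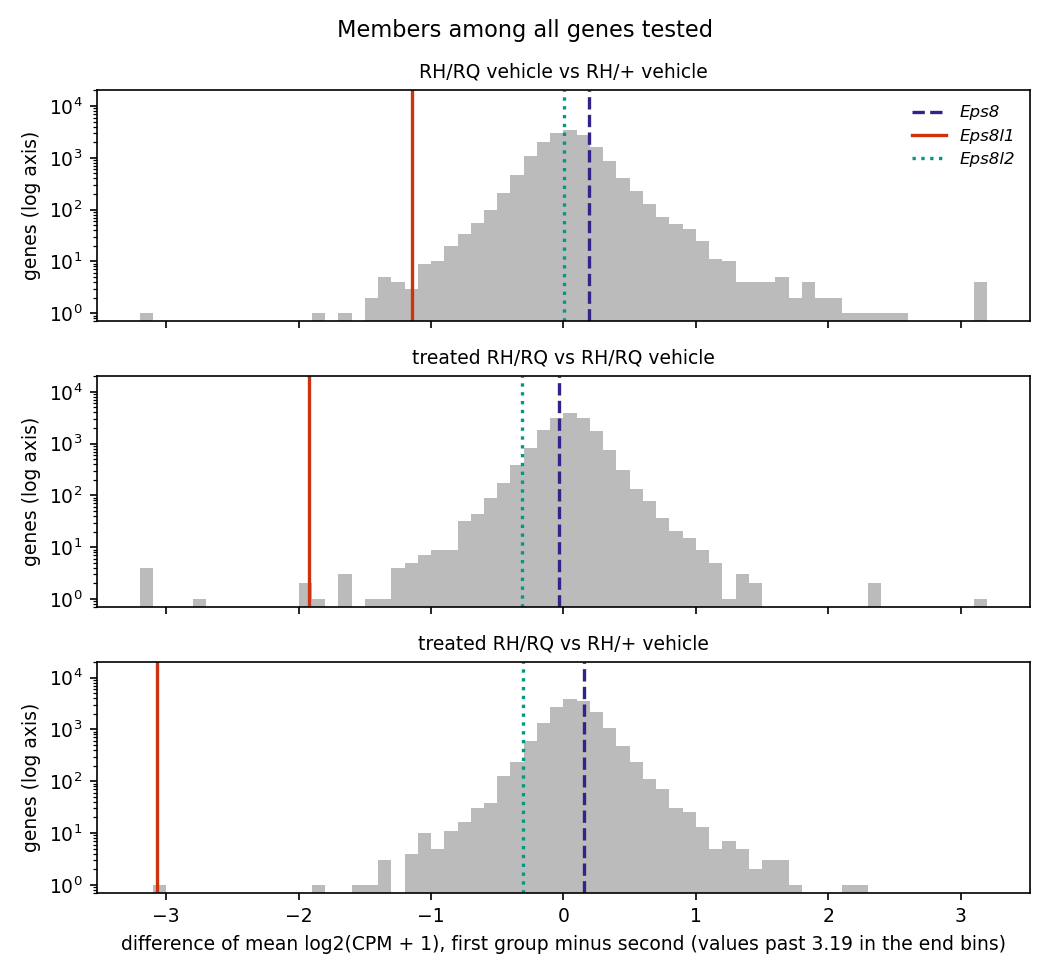
Histograms of the difference of mean log2(CPM + 1) for all 16804 genes tested in the 3 comparisons, with the number of genes on a log axis and the family members as vertical lines. The Eps8l1 line lies in the sparse left tail of each histogram, at -1.15, -1.92 and -3.07, while the Eps8 and Eps8l2 lines lie between -0.31 and 0.19. Counted from the largest decrease, Eps8l2 was number 703 for treated against RH/RQ vehicle and number 458 for treated against RH/+.

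Reads were counted per gene, so isoforms of Eps8l1 were not separated. The annotation gives it 7 protein-coding transcripts whose starts fall at 4460702 to 4460715 or at 4464493 to 4464869 on chromosome 7. An antisense transcript, Gm15494, shares 59 exon bases with Eps8l1 and was at 0 to 0.206 CPM. Fewer cells of an expressing type and less RNA per cell cannot be told apart in bulk tissue, so marker sums of other cell types are given beside the Eps8l1 levels. Epithelial markers were close to absent: 6 of 9 had a row, their sum was 0.158 to 0.401 CPM in RH/+, 0.255 to 0.309 in RH/RQ vehicle and 0.237 to 0.331 in treated hearts, and Epcam, Cldn4, Krt5, Krt14 and Sftpc had at most 3 reads in every library. The 8 mesothelial markers, which mark the outer lining of the heart, summed to 22.5 to 26.1 CPM, 21.2 to 31.8 CPM and 16.4 to 19.8 CPM in the same order. Of the 8, 1 was called by limma, Msln, which fell by 1.16 in treated against RH/+ hearts (adjusted p = 0.0232). That call was lost without RH/+ library 1 (adjusted p = 0.233), without treated library 2 (0.171), with DESeq2 (0.376), with a pseudocount of 5 (0.063) and with no filter on low values (0.477). In the same comparison Upk3b differed by -0.78, Upk1b by -0.41, Krt19 by -0.29 and Lrrn4 by -0.08, as Msln did. They were not called (limma adjusted p = 0.0658, 0.262, 0.458 and 0.892). Krt18 differed by 0.70, Krt8 by 0.26 and Wt1 by 0.05, the other way, and were not called (limma adjusted p = 0.0965, 0.584 and 0.913). Against RH/RQ vehicle, treated hearts differed by -0.80 for Msln, -0.65 for Upk3b, -0.57 for Upk1b and -0.46 for Lrrn4. Wt1 and Krt19 differed there by -0.23 each, Krt8 by -0.06 and Krt18 by 0.13, with no call. The 4 adipocyte markers summed to 0.683 and 5.96 CPM in the RH/+ libraries, to 0 to 0.157 CPM in RH/RQ vehicle and to 0.303 to 0.448 CPM in treated hearts. Only Plin1 and Cfd of them were tested, and both fell in RH/RQ vehicle against RH/+ (limma adjusted p = 0.0343 and 0.0397), with both calls lost without RH/+ library 2 (0.51 and 0.731) or RH/RQ vehicle library 2 (0.103 and 0.0717), and that of Plin1 also without RH/RQ vehicle library 1 (0.0892). Both were lost too with a pseudocount of 5 (limma adjusted p = 0.082 and 0.101) and with no filter on low values (0.312 and 0.524), and with DESeq2 the adjusted p of Cfd was 0.123 while Plin1 was given none. Of 7 mural cell markers 1 was called, Acta2, which fell by 1.35 in RH/RQ vehicle and by 1.51 in treated hearts against RH/+. Both Acta2 calls were lost with no filter on low values (limma adjusted p = 0.0629 and 0.121). Pdgfrb differed the other way, by 0.29 and 0.32, and was not called (limma adjusted p = 0.088 and 0.0706). The mural markers summed to 986 to 989, 828 to 850 and 786 to 855 CPM, in which the mean of Acta2 alone was 216 CPM, 84.7 CPM and 74.8 CPM. The 6 fibroblast markers summed to 855 to 909, 1275 to 1411 and 1248 to 1475 CPM. By limma 3 of them rose in RH/RQ vehicle against RH/+ (Dcn, Lum and Col1a1), 5 rose in treated against RH/+ (these and Pdgfra and Dpt), and 1, Col1a1, fell in treated against RH/RQ vehicle. Tcf21 differed the other way from the rises, by -0.22 and -0.03, and was not called (limma adjusted p = 0.51 and 0.954). For treated against RH/RQ vehicle, Pdgfra, Dcn, Lum, Tcf21 and Dpt differed upward, by 0.04 to 0.19, and were not called. The first call of Dcn was lost without RH/RQ vehicle library 1 (limma adjusted p = 0.0566). Those of Pdgfra, Col1a1 and Dpt in treated hearts against RH/+ were lost without RH/+ library 1 (limma adjusted p = 0.293, 0.269 and 0.129), without treated library 1 (0.0871, 0.161 and 0.16) and with edgeR (0.0973, 0.0781 and 0.0583). Those of Pdgfra and Col1a1 were also lost with DESeq2 (0.0569 and 0.0806) and with TMM (0.0801 and 0.0715) or RLE factors (0.0857 and 0.077) in the limma fit. With no filter on low values, only the rise of Col1a1 in RH/RQ vehicle against RH/+ was kept among the fibroblast calls (limma adjusted p = 0.0243). The part of these cell types in the Eps8l1 levels was not tested.

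Eps8, the founding member and barbed-end capper, was at 12.5 and 14.3 CPM in RH/+ vehicle, 16.2 and 14.7 CPM in RH/RQ vehicle, and 16.2 and 13.9 CPM in treated hearts. Its 6 libraries spanned a narrow range, and only the RH/RQ vehicle libraries lay wholly above the RH/+ libraries, as did 30.8% of all genes tested. Means were 13.4 ± 1.30, 15.5 ± 1.05 and 15.1 ± 1.62 CPM (SD, n = 2 each). RH/RQ vehicle differed from RH/+ by 0.19 on the log2(CPM + 1) scale (95% interval -0.09 to 0.48, limma adjusted p = 0.521), treated from RH/RQ vehicle by -0.04 (-0.32 to 0.25, limma adjusted p = 0.948), and treated from RH/+ by 0.16 (-0.13 to 0.44, limma adjusted p = 0.643). None of these differences passed the threshold.

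Eps8l2, known for its place at the tips of hair cell stereocilia, was at 2.47 and 2.38 CPM in RH/+ vehicle, 2.23 and 2.66 CPM in RH/RQ vehicle, and 1.93 and 1.61 CPM in treated hearts, from 61 to 114 reads per library. The treated libraries were the lowest of the 6 and overlapped neither other group. A group below the other without overlap was also seen for 14.4% of genes tested against RH/RQ vehicle and for 9.66% against RH/+ vehicle. Means were 2.42 ± 0.062, 2.44 ± 0.297 and 1.77 ± 0.227 CPM (SD, n = 2 each), which puts treated hearts at 73.0% of the RH/+ mean. The differences were 0.01 for RH/RQ vehicle against RH/+ (95% interval -0.36 to 0.37, limma adjusted p = 0.993), -0.31 for treated against RH/RQ vehicle (-0.68 to 0.05, limma adjusted p = 0.498) and -0.31 for treated against RH/+ (-0.68 to 0.06, limma adjusted p = 0.433). These differences did not pass the threshold. A noncoding transcript on the opposite strand, B230206H07Rik, shares 1729 exon bases with Eps8l2 and was at 0 to 0.0527 CPM.

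Of the 2 paralogs, 0 were called in any comparison by limma, edgeR or DESeq2, and 0 had an unadjusted limma p under 0.05. Among all genes tested, limma called 4.99% for RH/RQ vehicle against RH/+, 2.05% for treated against RH/RQ vehicle and 2.86% for treated against RH/+. An unadjusted limma p under 0.05 was found for 17.1%, 12.5% and 15.1% of all genes tested in the same order. The authors' deposited tables give Eps8 log2 fold changes of 0.154, -0.0954 and 0.0574, and Eps8l2 changes of -0.0381, -0.526 and -0.565, with adjusted p-values from 0.756 to 1.0.

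Levels of different genes were compared per kb of annotated exon. In RH/+ vehicle hearts Eps8l1 was the most abundant of the family on this scale, at 2.26 ± 0.115 CPM per kb, against 1.09 ± 0.105 for Eps8 and 0.451 ± 0.0115 for Eps8l2. In RH/RQ vehicle hearts the order changed, with Eps8 at 1.25 ± 0.0853, Eps8l1 at 0.938 ± 0.203 and Eps8l2 at 0.455 ± 0.0553 CPM per kb (SD, n = 2). Eps8 was above Eps8l1 in each of those libraries, at 1.31 against 1.08 and 1.19 against 0.794 CPM per kb. In treated hearts Eps8l1 was the lowest, at 0.123 ± 0.00704, below Eps8l2 at 0.329 ± 0.0423 and Eps8 at 1.22 ± 0.131 CPM per kb. No library values crossed between neighbours in each order. The place of Eps8l1 in it is a description, with no test.

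Summed per length, the family was at 3.79 ± 0.208 CPM per kb in RH/+ vehicle, 2.64 ± 0.233 in RH/RQ vehicle and 1.67 ± 0.180 in treated hearts (SD, n = 2 each). Eps8l1 made up 59.7% and 59.3% of that sum in the RH/+ libraries, 38.5% and 32.0% with RH/RQ vehicle, and 7.11% and 7.64% in the treated libraries. The share of Eps8 was 28.6% in RH/+, 47.4% in RH/RQ vehicle and 73.0% in treated hearts, and that of Eps8l2 was 11.9%, 17.4% and 19.7%. Per length, the family sum was mostly Eps8l1 in RH/+ hearts and mostly Eps8 in treated hearts. The first of these depended on the division by length: in plain CPM, Eps8l1 was 13.1 of 28.1 and 14.1 of 30.8 CPM in the RH/+ libraries. A length taken from the union of annotated exons is an approximation where a tissue uses only some isoforms.

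**Figure D3:**
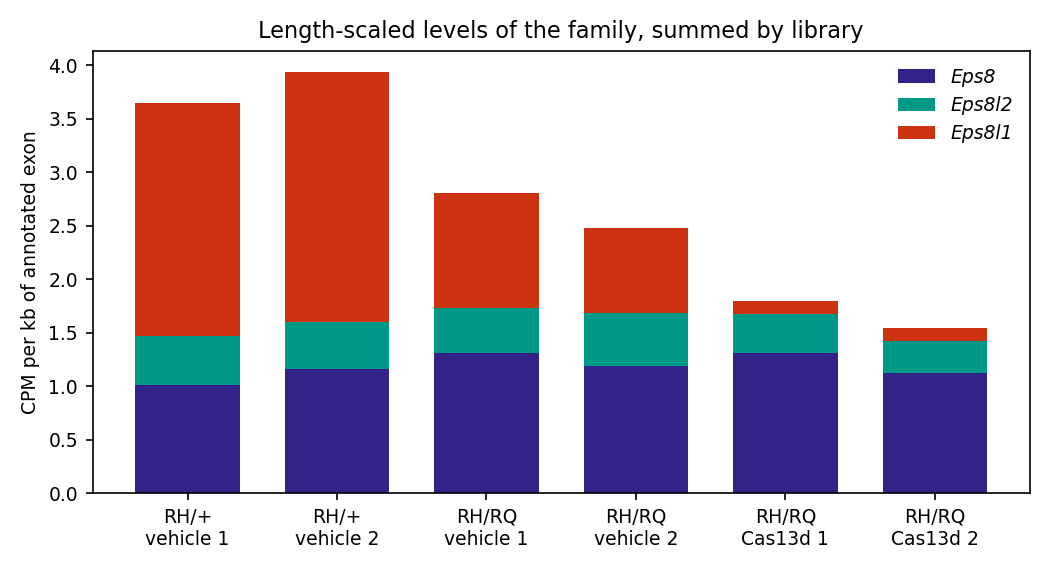
CPM per kb of annotated exon for Eps8, Eps8l2 and Eps8l1, stacked in each of the 6 libraries. The Eps8l1 segment shrinks from 59.7% and 59.3% of the bar in the RH/+ libraries to 7.11% and 7.64% in the treated libraries, and the bar itself shortens from 3.65 and 3.94 to 1.80 and 1.54 CPM per kb.

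Genes whose profile over the 6 libraries was most like that of Eps8l1 were ranked by the root mean square difference of their log2(CPM + 1) values, each gene centred on its own mean, among 12328 named genes averaging 1 CPM or more. No gene came close: the smallest difference was 0.793, for Aqp4, a water channel, where the Eps8l1 profile itself has a standard deviation of 1.27 and the middle value over all genes was 1.31. Others among the nearest were Acta2 (0.833), Mme, the membrane peptidase neprilysin (0.840), Mylk4, a myosin light chain kinase (0.853), Tmem150c (0.860), Agt, angiotensinogen (0.872), Pfkfb1 (0.878), Retnla (0.906) and Clcn1, a chloride channel (0.917). Of the paralogs, Eps8l2 had a difference of 1.14, with 188 genes closer, and Eps8 of 1.33, with 7091 closer. Aqp4 was at 3.62 and 4.43 CPM in RH/+, 2.88 and 2.42 CPM in vehicle RH/RQ, and 0.993 and 1.48 CPM in treated hearts, and Agt at 5.96 and 5.71, 3.803 and 4.434, and 2.43 and 2.40 CPM. Both stepped down without overlap, as Eps8l1 did, but by smaller amounts, and so did Pfkfb1 and Retnla. The steps of Mylk4 and Mme were unequal in size: Mylk4 was at 210.3 and 191.1, 80.1 and 82.7, and 80.3 and 74.7 CPM, with most of the decrease between the vehicle groups, whereas Mme was at 11.8 and 13.2, 10.1 and 11.3, and 5.49 and 5.59 CPM, with most of it between RH/RQ vehicle and treated hearts. The likeness was measured over the same 6 libraries in which Eps8l1 was chosen, and it is a description.

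The genes around Eps8l1 on chromosome 7 were read next. Of 9 genes in the tables that start within 100 kb of its start, 6 were tested. Rdh13, a retinol dehydrogenase whose start lies at -15.025 kb, upstream of Eps8l1, was at 35.6 and 37.6 CPM in RH/+, 38.4 and 37.6 CPM in vehicle RH/RQ and 34.9 and 33.0 CPM in treated hearts. Ppp1r12c, a myosin phosphatase subunit 41.0 kb downstream, was at 70.6 and 75.0, 78.6 and 73.7, and 84.7 and 74.8 CPM. These nearest tested neighbours differed by -0.16 to 0.13 on the log2(CPM + 1) scale over the 3 comparisons, with limma adjusted p-values from 0.578 to 0.865, where Eps8l1 differed by -1.15 to -3.07. Tnni3, cardiac troponin I, 63.6 kb downstream, differed by -0.16, 0.24 and 0.08, and was not called. Dnaaf3 and Syt5 were not called either.

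Tnnt1, the slow skeletal troponin T gene 55.7 kb downstream of the Eps8l1 start, was the only tested neighbour called. It was at 14.1 and 12.3 CPM in RH/+, 8.02 and 9.33 CPM in vehicle RH/RQ, and 10.8 and 9.78 CPM in treated hearts, and fell by 0.55 in RH/RQ vehicle against RH/+ (SE 0.15, limma adjusted p = 0.0302). The call was lost without RH/+ library 1 (adjusted p = 0.357), RH/+ library 2 (0.0668) or RH/RQ vehicle library 1 (0.241), and with no filter on low values (0.198). In treated hearts Tnnt1 lay below both RH/+ libraries, as did 9.66% of all genes tested. Its treated level differed from RH/RQ vehicle by 0.23 and from RH/+ by -0.33, and neither was called (limma adjusted p = 0.579 and 0.296). Around the paralogs, 0 of 2 tested genes near Eps8 (Dera and Strap) and 0 of 8 near Eps8l2 were called in any comparison by limma, edgeR or DESeq2. Unadjusted limma p-values under 0.05 were counted in the order RH/RQ vehicle against RH/+, treated against RH/RQ vehicle and treated against RH/+. They were found for 2, 0 and 1 genes near Eps8l1, for 1, 0 and 1 near Eps8 and for 1, 3 and 0 near Eps8l2. Over all genes tested the shares were 17.1%, 12.5% and 15.1%, and limma called 4.99%, 2.05% and 2.86%.

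**Figure D4:**
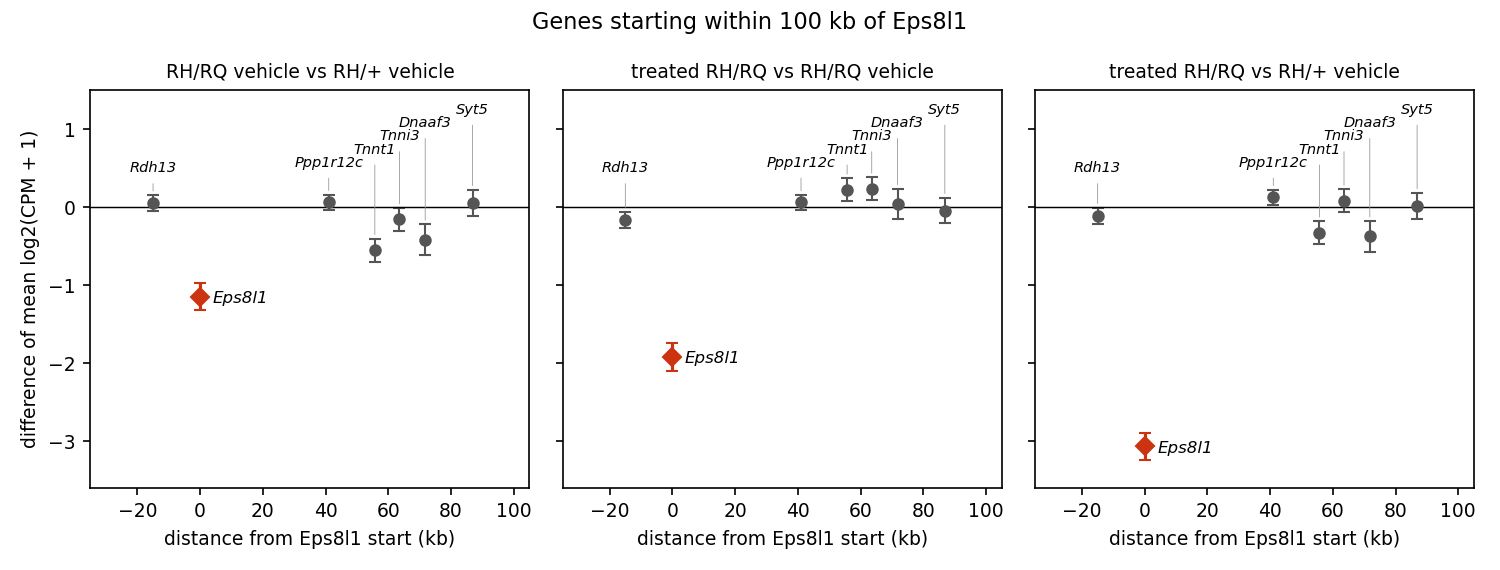
Difference of mean log2(CPM + 1), with its standard error, for Eps8l1 (red diamond) and the 6 tested genes starting within 100 kb of it (grey), against distance from the Eps8l1 start in kb, for the 3 comparisons. Eps8l1 lies at -1.15, -1.92 and -3.07, and every neighbour lies between -0.55 and 0.24.

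The partners of the family and other regulators of the same actin structures were taken from 7 lists of 106 genes, of which 104 had a row and 95 were tested. For RH/RQ vehicle against RH/+, 7 rose and 2 fell by limma, 9.47% of those tested against 4.99% of all genes (3.48% rose and 1.51% fell). For treated against RH/RQ vehicle, 0 rose and 2 fell, 2.11% against 2.05% (1.22% rose and 0.827% fell). For treated against RH/+, 5 rose and 2 fell, 7.37% against 2.86% (2.33% rose and 0.53% fell). The middle difference over the 95 genes was 0.12, 0.01 and 0.13, where that over all genes was 0.04, 0.04 and 0.08. An unadjusted limma p under 0.05, counted for each list below, was found for 17.1%, 12.5% and 15.1% of all genes tested. The largest of the called differences, that of Epn3 between the vehicle groups (-1.23), was of the size of the Eps8l1 difference there, and in the other comparisons each called gene was nearer to 0 than Eps8l1. With no filter on low values, which lowered the calls over all genes as well, the called list genes shrank to 1, 0 and 0. With CPM over nuclear genes, a scale chosen after seeing the data, 17 in place of 7 rose in RH/RQ vehicle against RH/+. Between treated and RH/RQ vehicle hearts, 4 in place of 2 fell with that scale, with TMM or RLE factors in the limma fit, with edgeR and with DESeq2. Leaving out single libraries moved the number that rose between 2 and 14 in RH/RQ vehicle against RH/+, the lowest without RH/+ library 1 and the highest without treated library 2, and between 1 and 7 in treated against RH/+, the lowest and highest without the same libraries.

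The genes that make the Rac-activating complex with Eps8 gave no call. Of 14 tested, 0 were called in each comparison by limma, edgeR and DESeq2, with unadjusted limma p-values under 0.05 for 2 genes in RH/RQ vehicle against RH/+ and for 0 in the other comparisons. Abi1, the adaptor that bridges Eps8 proteins to Sos1, was at 32.0 and 31.0 CPM in RH/+, 38.1 and 30.9 CPM in vehicle RH/RQ and 35.7 and 36.1 CPM in treated hearts. Sos1, the exchange factor for Ras and Rac, was at 25.2 and 21.4, 28.5 and 30.6, and 25.6 and 27.2 CPM. Over all 14 genes the differences ran from -0.17 to 0.33. Rac1, the GTPase itself, had the highest CPM of the list, at 144 to 165 CPM over the 6 libraries, followed by Pik3r1 at 144 to 161 CPM.

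Among EGF receptors and ligands, 1 of 11 tested genes was called. Egfr, the receptor through which Eps8 was found as a substrate, was at 7.14 and 8.39 CPM in RH/+, 12.1 and 11.1 CPM in vehicle RH/RQ and 10.3 and 8.30 CPM in treated hearts. It rose by 0.53 in RH/RQ vehicle against RH/+ (SE 0.16, limma adjusted p = 0.0492), and the call was lost without any one of the 4 libraries compared: adjusted p was 0.433 without RH/+ library 1, 0.0828 without RH/+ library 2, 0.264 without RH/RQ vehicle library 1 and 0.116 without RH/RQ vehicle library 2. In the other comparisons 0 of the 11 were called by limma, edgeR or DESeq2. Unadjusted limma p-values under 0.05 were found for 6 of the 11 in RH/RQ vehicle against RH/+ and for 2 in each of the others. The shares over all genes tested were 17.1% for RH/RQ vehicle against RH/+, 12.5% for treated against RH/RQ vehicle and 15.1% for treated against RH/+. Erbb3, an ERBB family receptor, and Hbegf, a ligand of Egfr, had the highest CPM of the list, at 13.2 to 22.6 and 14.6 to 19.98 CPM. In the endocytic list, where Usp6nl is the Eps8 partner that turns off Rab5, 1 of 11 was called in each comparison. Epn3, an epsin of endocytic pits, was at 16.3 and 18.1 CPM in RH/+, 7.66 and 5.90 CPM in vehicle RH/RQ and 7.996 and 7.778 CPM in treated hearts. It fell by 1.23 in RH/RQ vehicle (limma adjusted p = 1.27e-05) and by 1.03 in treated hearts (limma adjusted p = 0.000244), each against RH/+. Both RH/RQ groups lay below the RH/+ hearts, as did 18.5% (RH/RQ vehicle) and 9.66% (treated) of all genes tested. The mean of Epn3 was 7.89 CPM in treated and 6.78 CPM in RH/RQ vehicle hearts, a difference that was not called. Reps2, an Eps15-related protein, was at 3.88 and 3.43 CPM in RH/RQ vehicle against 2.10 and 1.69 CPM in treated hearts and fell by 0.69 (limma adjusted p = 0.0441). In RH/+ hearts Reps2 was at 1.97 and 2.28 CPM, which overlapped the treated hearts. The call of Reps2 too was lost without any one of the 4 libraries compared, with adjusted p of 0.22 and 0.154 without RH/RQ vehicle libraries 1 and 2, and 0.0748 and 0.142 without treated libraries 1 and 2. Usp6nl itself was at 8.72 to 12.4 CPM and was not called. In the order of the comparisons above, 3, 1 and 3 of the 11 endocytic genes had an unadjusted limma p under 0.05.

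Other proteins that cap or sever filaments, as Eps8 does, were called in the comparisons with RH/+: 4 of 18 rose and 0 fell in treated hearts, and 1 of 18 rose in RH/RQ vehicle hearts. Of all genes tested, 2.33% rose and 0.53% fell in the former comparison and 3.48% rose in the latter. Capg, a gelsolin-family capping protein, was at 12.470 and 14.005 CPM in RH/+, 22.01 and 18.38 CPM in vehicle RH/RQ and 25.26 and 19.99 CPM in treated hearts. It rose by 0.57 in RH/RQ vehicle (limma adjusted p = 0.0145) and by 0.72 in treated hearts (limma adjusted p = 0.00316), the former lost without RH/+ library 1 (0.165) or RH/RQ vehicle library 1 (0.188) and the latter without treated library 1 (0.0639). Scin, scinderin, rose by 0.77 in treated hearts against RH/+, from 3.96 and 4.96 to 8.35 and 8.15 CPM (limma adjusted p = 0.0122; 0.219 without RH/+ library 1 and 0.0678 without treated library 1). Gsn, gelsolin, rose by 0.54, from 1278 and 1628 to 2267 and 1934 CPM (limma adjusted p = 0.0225), and Twf2, a twinfilin, by 0.42, from 146.8 and 147.1 to 213.9 and 181.0 CPM (limma adjusted p = 0.0145). These last calls were both lost with edgeR (adjusted p = 0.066 and 0.132), with TMM factors (0.137 and 0.0965) or RLE factors (0.148 and 0.105) in the limma fit, without RH/+ library 1 (0.523 and 0.134) and without treated library 1 (0.109 and 0.125), and that of Twf2 also without RH/+ library 2 (0.0885). For treated against RH/RQ vehicle 0 of the 18 were called by limma, and 1 each by edgeR and DESeq2. Unadjusted limma p-values under 0.05 were found for 9 of the 18 in RH/RQ vehicle against RH/+, 3 in treated against RH/RQ vehicle and 6 in treated against RH/+. The shares over all genes tested were 17.1%, 12.5% and 15.1% in that order. Svil, supervillin, next to Gsn in CPM on this list, was at 304.3 to 456.5 CPM and was not called. Capzb, a subunit of the main barbed-end capping protein of muscle, was at 211 to 251 CPM and was not called.

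Of 14 bundling and protrusion genes, 2 were called, both higher in RH/RQ vehicle than in RH/+. Lcp1, the plastin of blood cells, rose by 0.58, from 26.3 and 23.3 to 38.7 and 36.4 CPM (limma adjusted p = 0.00206; 0.0553 without RH/+ library 2). Enah, an anti-capping protein, rose by 0.41, from 156.6 and 150.2 to 195.5 and 214.4 CPM (limma adjusted p = 0.00938), with the call lost without RH/+ library 1 (0.0541), RH/+ library 2 (0.108) or RH/RQ vehicle library 2 (0.154). Macrophage markers, summed, were at 143 to 147 CPM (RH/+) and 189 to 199 CPM (vehicle RH/RQ) beside the rise of Lcp1; their part in it was not tested. The unadjusted limma p was under 0.05 for 4 of the 14 in RH/RQ vehicle against RH/+. In the comparisons with treated hearts limma called 0 of the 14, with 2 unadjusted p-values under 0.05 in each, while edgeR and DESeq2 each called 1, Lcp1, for treated against RH/RQ vehicle. Enah had the highest CPM of the list, followed by Myo10, a filopodial motor, at 83.9 to 98.7 CPM. Baiap2, which bundles filaments with Eps8, was at 8.32 and 10.02, 11.35 and 11.55, and 14.7 and 12.3 CPM, and missed the threshold, with a difference of 0.51 for treated against RH/+ (limma adjusted p = 0.0651).

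Among stereocilia and microvilli genes, 9 of 15 were tested, since Cdhr2 and Anks4b had no row and Myo15, Myo3a, Myo3b and Cdhr5 were at 0 to 0.138 CPM. Whrn, whirlin, the scaffold that holds Eps8 at stereocilia tips, was at 33.4 and 33.9 CPM in RH/+, 18.9 and 19.4 CPM in vehicle RH/RQ and 24.0 and 21.5 CPM in treated hearts. Whrn fell by 0.78 in RH/RQ vehicle (limma adjusted p = 0.000109) and by 0.55 in treated hearts (limma adjusted p = 0.0078), each against RH/+, the latter lost without RH/+ library 1 (0.082) or 2 (0.0726). Both RH/RQ groups lay below the RH/+ hearts, as did 18.5% (RH/RQ vehicle) and 9.66% (treated) of all genes tested. The mean of Whrn was 22.8 CPM in treated and 19.2 CPM in RH/RQ vehicle hearts, a difference that was not called. Rdx, radixin, which ties actin to the membrane, rose by 0.64 in RH/RQ vehicle against RH/+ (limma adjusted p = 0.00012) and fell by 0.55 in treated against RH/RQ vehicle (limma adjusted p = 0.00137). Its values were 85.6 and 94.4, 138.2 and 142.2, and 91.2 and 99.9 CPM, so that treated hearts overlapped RH/+ hearts. In the same order as before, 6, 3 and 2 of these 9 genes had an unadjusted limma p under 0.05, against 17.1%, 12.5% and 15.1% of all genes. In the list of WAVE and Arp2/3 genes, which Abi1 links to the family, 2 of 18 rose in RH/RQ vehicle and 1 of 18 in treated hearts, each against RH/+. Wasf3, a WAVE subunit, was at 0.683 and 0.977, 2.18 and 2.04, and 2.18 and 2.61 CPM, and rose by 0.77 (limma adjusted p = 0.0105) and 0.89 (limma adjusted p = 0.00475). The first of these calls was lost without RH/+ library 1 (0.184) or RH/RQ vehicle library 1 (0.0783), and the second without RH/+ library 1 (0.112). Arpc1b rose by 0.46, from 46.6 and 59.4 to 71.0 and 74.6 CPM (limma adjusted p = 0.0247), and the call was lost without RH/+ library 1 (0.45), RH/RQ vehicle library 1 (0.0544) or RH/RQ vehicle library 2 (0.118). For treated against RH/RQ vehicle, 0 of the 18 were called by limma, edgeR or DESeq2, and 0 had an unadjusted limma p under 0.05, against 5 in each comparison with RH/+. Arpc2, of the Arp2/3 complex, and Cyfip2, of the WAVE complex, had the highest CPM of the list, at 129.1 to 146.7 and 124.2 to 142.1 CPM.

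**Figure D5:**
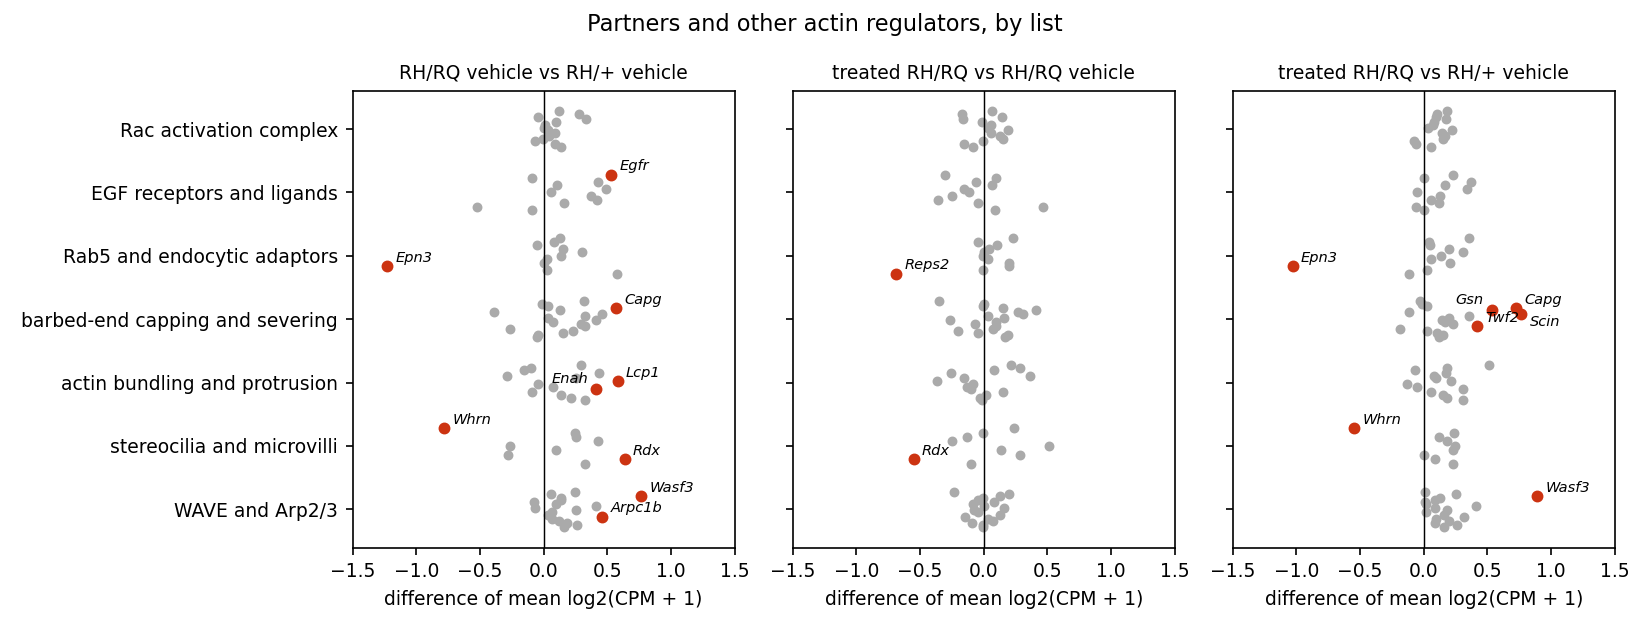
Difference of mean log2(CPM + 1) for each tested gene of the 7 lists in the 3 comparisons, with genes called at a limma adjusted p under 0.05 in red and named and the others in grey. The Rac activation complex holds no red point. Epn3 is the farthest from 0, at -1.23 for RH/RQ vehicle against RH/+ and at -1.03 for treated against RH/+. Eps8l1 differed by -1.15 and -3.07 in the same comparisons.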

How the data were processed

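Messenger RNA of 6 mouse heart samples was purified with poly-T magnetic beads out of 1 µg of total RNA, per the labels. The submitters' processing notes name HISAT2, HTSeq, DESeq2 and mm10; not given in the sources used here are their roles, versions, strand setting and annotation. Sense and antisense reads can therefore not be told apart where genes overlap.

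CPM per gene come from 3 full tables that the authors deposited, each of 4 libraries. Per the file headers they also hold a mean signal per gene, a log2 fold change with its error, a test score and p-values. A library in 2 tables had identical CPM in both (largest difference 0), and no sample column was left over (0). Every CPM above 0 was a whole multiple of 1 read (100% within 0.001), so reads were recovered: 38091444 and 39914862 in RH/+ vehicle, 51017058 and 38792351 in RH/RQ vehicle, and 36269261 and 37927494 in treated hearts.

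All 6 libraries entered 1 limma fit (limma 3.58.1, R 4.3.3) with a trend on log2(CPM + 1) and 3 group means. Genes were kept by filterByExpr (edgeR 4.0.16) at a minimum count of 10, Benjamini-Hochberg adjustment ran over all 16804 genes tested, tests were two-sided and calls were made at 0.05. The fit was tested on simulated data. edgeR and DESeq2 1.42.0 on the recovered reads, other scalings, filters and pseudocounts, a block and leaving out each library were alternatives. Symbols were matched to GENCODE M21 (28973 of 29385 genes with a single match) for coordinates and exon lengths. RefSeq promoters matched 2 of the 3 genes.

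Members and lists were chosen with earlier results of these data known. Named were the called genes of each list (at most 5 per direction), the 2 highest in CPM where none was called, the 10 profiles nearest to Eps8l1 (of which 1 is not reported here) and the genes within 100 kb; Usp6nl, Capzb, Baiap2, Sos1 and Abi1 were named for their tie to Eps8, after their values were seen.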

Additional observations from a re-analysis of the deposited data

How the results depend on the processing

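Eps8 and Eps8l2 were uncalled under each alternative run, and Eps8l1 was lower at each step under each. The size of its differences depended on the scale: RH/RQ vehicle against RH/+ was -1.31 with edgeR, -1.32 with DESeq2, -0.81 with a pseudocount of 5 and -1.33 to -0.96 leaving out single libraries. Treated against RH/RQ vehicle was -2.99 with edgeR, -2.99 with DESeq2, -2.76 with a pseudocount of 0.1, -0.89 with 5, -2.10 with CPM over nuclear genes (chosen after seeing the data) and -2.11 to -1.73 leaving out single libraries. Treated against RH/+ was -4.30, -4.31, -4.03, -1.70 and -3.24 under the same settings. Genes called for RH/RQ vehicle against RH/+ (838; 585 higher, 253 lower) were 57 with no filter and 393 to 1195 without single libraries, and the split was 527 and 404 with TMM, 513 and 407 with RLE factors, 524 and 394 with edgeR and 491 and 457 with DESeq2. For treated against RH/RQ vehicle (344; 205 and 139) they were 15 with no filter, 567 with the replicate block and 155 to 661 without single libraries, split 172 and 196 with TMM, 181 and 200 with edgeR and 176 and 194 with DESeq2. For treated against RH/+ (480; 391 and 89) they were 7 with no filter and 206 to 744 without single libraries, split 237 and 164 with TMM, 248 and 163 with edgeR and 247 and 196 with DESeq2. The causes were not tested. The replicate block, taken from the leading digit of sample titles, gave 1173, 567 and 715 calls. Over all genes tested, same-numbered libraries deviated together with correlations of 0.13, -0.02 and 0.07. Whether the numbers pair the libraries was not decided, since a correlation over all genes can miss a shift shared by only some genes.

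With 27 and 28 reads in treated hearts, the Eps8l1 folds carry the counting error shown, and Eps8l2, at 61 to 114 reads, allows only wide intervals.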
